A study of Mus musculus with 2 samples.

Results

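Retained-intron transcripts are annotated transcripts that keep sequence which other transcripts of the same gene splice out. The transcripts described here were selected on their measured level: they carry the annotation type retained_intron and had a level of at least 1 TPM, a unit that corrects for transcript length and library size, in both libraries of the alignment-based tables. The rule found 8139 members among 21848 annotated retained-intron transcripts (37.3%) and 141767 annotated transcripts of any type. The members belong to 4265 of the 9421 genes with such a transcript, and they made up 21.9% of the 37155 transcripts that reached 1 TPM in both libraries. The study holds 1 group of 2 libraries, made from 300 ng of total RNA each, from the left cerebral cortex of B6CASTF1/J females 2 months old, the first-generation cross of C57BL/6J and CAST/EiJ. Both libraries carry spike-in RNA, and no treatment or second genotype was compared. The labels name biological replicates 1 and 2 but give both the same donor entry, so the spread between them may be technical.

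Introns are removed from the primary transcript by the spliceosome, which recognises a GT at the start and an AG at the end of nearly every intron. An intron that stays in a coding RNA usually brings a premature stop codon, and such RNA can be held in the nucleus or degraded by nonsense-mediated decay. Retention is well known for genes of splicing factors and their kinases, and in neurons for transcripts that wait in the nucleus for a signal. Total RNA also contains primary transcripts whose introns have not yet been removed. The tables have no class for these, so stable retention and unfinished splicing cannot be told apart here.

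The transcripts of highest level carried short stretches of intron that the coding transcripts of their genes lack, and some of these stretches are shown. In each of the following the transcript starts inside an intron and runs into the next exon, so that the stretch ends at the annotated acceptor, whose AG is in capitals. All sequences are those of GENCODE M21 on mm10, the C57BL/6J reference, read 5′ to 3′ on the strand of the gene. Uchl1-202 starts with 52 intronic bases at chr5:66676892-66676943, plus strand, and Atp5j-208 with 100 at chr16:84831508-84831607, minus strand. The stretch of Rps16-203 spans 68 bases at chr7:28350924-28350991, plus strand, that of Ctsb-202 spans 90 at chr14:63135518-63135607, plus strand, and that of Grcc10-203 only 20 at chr6:124740696-124740715, minus strand.
Uchl1-202: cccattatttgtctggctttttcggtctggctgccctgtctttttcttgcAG
Atp5j-208: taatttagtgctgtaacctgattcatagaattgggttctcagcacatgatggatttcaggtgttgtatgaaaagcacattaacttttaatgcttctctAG
Rps16-203: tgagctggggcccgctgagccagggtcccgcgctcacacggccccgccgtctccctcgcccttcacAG
Ctsb-202: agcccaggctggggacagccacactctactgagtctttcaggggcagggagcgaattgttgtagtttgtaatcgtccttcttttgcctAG
Grcc10-203: gggatgcttccgtctcgcAG

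Other members of high share hold 1 whole intron between coding exons. The introns of Prelid1-202 (82 bases, chr13:55324445-55324526, plus strand), Mrps26-201 (80 bases, chr2:130564228-130564307, plus strand), Arsa-201 (77 bases, chr15:89474710-89474786, minus strand), Carmil2-201 (163 bases, chr8:105690920-105691082, plus strand) and Rps20-201 (192 bases, chr4:3835292-3835483, minus strand) are given whole. They are shown with up to 10 exon bases on each side, since they are the 5 whole introns, flanked by coding sequence, of the named members with the highest shares. Capitals mark the GT and AG ends and, where there is one, the first stop codon in the reading frame of the exon before it.
Prelid1-202: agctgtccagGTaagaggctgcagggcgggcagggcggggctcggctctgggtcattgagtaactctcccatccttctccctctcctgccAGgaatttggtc
Mrps26-201: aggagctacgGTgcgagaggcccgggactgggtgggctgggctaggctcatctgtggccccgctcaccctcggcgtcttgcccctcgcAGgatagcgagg
Arsa-201: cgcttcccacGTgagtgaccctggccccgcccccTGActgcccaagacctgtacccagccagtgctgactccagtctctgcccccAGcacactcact
Carmil2-201: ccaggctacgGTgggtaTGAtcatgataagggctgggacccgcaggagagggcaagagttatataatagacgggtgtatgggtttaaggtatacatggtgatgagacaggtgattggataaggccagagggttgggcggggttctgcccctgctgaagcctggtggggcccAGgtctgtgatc
Rps20-201: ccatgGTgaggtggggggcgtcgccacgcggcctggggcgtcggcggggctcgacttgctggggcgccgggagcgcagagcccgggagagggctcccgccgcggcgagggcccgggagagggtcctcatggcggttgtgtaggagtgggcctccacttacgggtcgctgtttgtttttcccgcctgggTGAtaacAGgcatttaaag
The stop begins after 24 intronic bases in Arsa, after 7 in Carmil2 and after 183 in Rps20, whose intron follows its start codon. The Prelid1 and Mrps26 introns hold no stop in that frame.

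Only a minority of members hold an intron from end to end. Of the 8139 members, 2647 (32.5%) contained at least 1 whole intron of a coding transcript of the gene, and with overlapping alternative introns merged, 1935 of them held 1 separate intronic stretch and 712 held 2 or more, up to 10. A larger number, 5401 (66.4%), overlapped an intron only in part. A further 33 had no base in such an intron, and 58 belonged to genes with no coding transcript. Among the partial members 61.4% ended inside an intron and 50.6% started inside one, with some doing both, and 61 did neither. Where the 3′ end lay in an intron, 96.5% of 3295 intronic stretches began with GT, so that the exon ran on past the annotated donor, by a median of 389 bases. Where the 5′ end lay in an intron, 95.3% of 2711 stretches ended with AG, with a median of 207 bases. Of the 13709 retained-intron transcripts below the threshold, 27.8% held a whole intron and 68.8% part of one.

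The members were short transcripts, with a median length of 880 bases and 3 exons, and 680 were single-exon. The median member had 351 intronic bases. It also had a median of 290 bases, counted by genome position, that no other annotated transcript on the same strand covers, called own bases here. In 652 members (8.01%) there was no own base, so only combinations of exons or reads that end within them can tell them from other transcripts.

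The whole introns inside members were short. The 4039 distinct introns of at least 30 bases, overlapping alternatives included, lay in 3477 separate stretches. They had a median length of 258 bases (quartiles 119 and 647), against 1372 (quartiles 463 and 3596) for the 63939 introns of coding transcripts of the same genes that lay in no retained-intron transcript. Of the former 54.4% were under 300 bases, and of the latter 18.4%. An intron counts as held only if it fits inside a single exon of an annotated retained-intron transcript. The median member is 880 bases long, so the definition limits the length of held introns, and how much of the gap it makes was not tested. Introns held only by retained-intron transcripts below the threshold were close to those of members in length, with a median of 297 bases over 4613 introns. Their median GC content was 50.2%, and that of introns in members 52.5%.

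**Figure D1:**
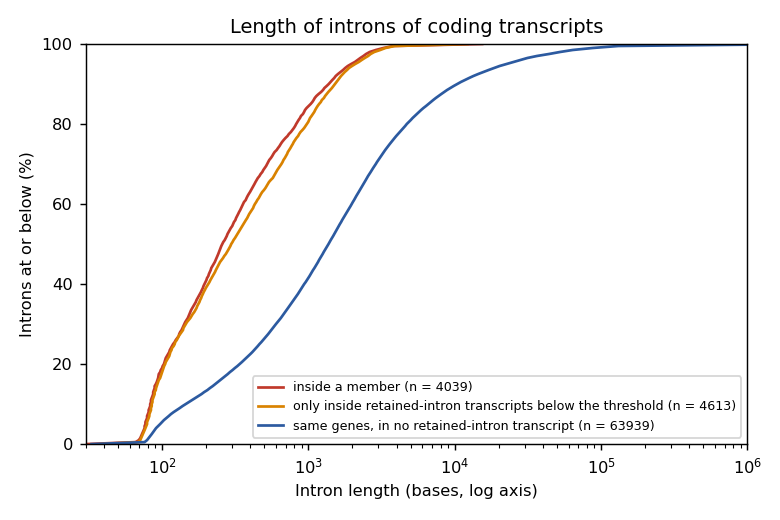
The x axis gives intron length in bases on a log axis, and the y axis the percent of introns at or below that length, for 3 sets of introns of coding transcripts. The curve of introns inside members reaches 50% at 258 bases, close to that of introns in retained-intron transcripts below the threshold (297), while introns in no retained-intron transcript reach it at 1372. Held introns must fit inside a single exon of a retained-intron transcript, which limits their length.

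The splice sites of the held introns were ordinary. GT-AG ends were found in 3964 introns (98.1%), GC-AG in 51 and AT-AC in 4. A start of G or A followed by TATCCTT, the donor motif of the minor spliceosome, searched on the strand of the gene only, was found in 20 (0.495%), against 19 of 4613 (0.412%) in introns below the threshold. Coding sequence lay on both sides of 3713 introns, and a frame could be read into 3712. An in-frame stop was present in 3311 of these (89.2%), beginning after a median of 36 intronic bases. The share among introns below the threshold was 88.8%. Of the 401 introns with no stop, 104 had a length that is a multiple of 3, which leaves the downstream frame unchanged. The first intron of a coding transcript accounted for 12.01% of the held introns and the last for 9.19%.

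Some held introns carry a small RNA of their own. Small nucleolar RNAs, which guide the modification of ribosomal and spliceosomal RNA, and many microRNAs are cut out of introns of host genes. A small nucleolar, Cajal-body or micro RNA on the same strand lay in 60 introns inside members (1.49%), against 12 (0.260%) of those below the threshold. The 60 introns came from 41 genes and 49 members. Hspa8-208, a transcript of a constitutive heat-shock chaperone, holds Snord14c, Snord14d and Snord14e in separate introns, and was at 6.39 and 5.88 TPM in replicates 1 and 2. Rps12-209, from a small-subunit ribosomal protein gene, holds Snora33 and Snord100 and stood at 1.96 and 1.37 TPM. Eif4a2-218, from a translation initiation helicase gene, holds Snora81 and had 8.22 and 7.11 TPM. These members held small parts of their genes: the median share of the 49 was 3.35% of the gene's TPM, against 7.61% for the other 2598 members with a whole intron. The members were chosen on level and the levels of the host genes were not matched, so the counts are a description.

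Together the members held 3.68% of all TPM in replicate 1 and 3.41% in replicate 2, and 3.21% and 3.08% of the expected counts. In the read-based tables they held more, 6.07% and 5.86% of all tpm. Within their own genes they held 14.4% and 14.1% of the summed TPM, and nearly the same in the read-based tables, 14.2% and 14.0% of the summed tpm. Single members were mostly low: the median was 2.52 and 2.31 TPM, with 58.6 and 57.5 expected counts. The 10th and 90th percentiles of the mean level were 1.32 and 7.74 TPM. Only 486 members had at least 10 TPM in both libraries and 40 at least 50. At the threshold, Snrnp200-204, from a spliceosomal helicase gene, was just inside with 1.44 and 1.00 TPM, as were Arnt-208 with 1.00 and 1.24 and Psmd2-204 with 1.14 and 1.00. Just outside were Jkamp-207 with 1.82 and 0.99 TPM, Fance-212 with 0.99 and 1.80 and Fosb-204 with 1.38 and 0.99. In all, 2623 retained-intron transcripts reached 1 TPM in 1 library only, and 2731 were at 0 in both.

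The highest member was Uchl1-202, from the gene of an abundant neuronal ubiquitin hydrolase. It had 302 TPM in replicate 1 (deposited interval 279 to 304) and 263 in replicate 2 (243 to 267), a mean of 283 ± 27.3 (SD, n = 2). That was 73.7% and 70.1% of the gene's summed TPM, and the deposited intervals of the libraries did not overlap. The coding transcript Uchl1-201 was listed at 93.3 and 99.6 TPM. In the read-based tables the order was the opposite, with Uchl1-202 listed at 0 in both libraries and Uchl1-201 at 603 and 584 tpm. The member has 52 own bases, those shown above, and whether they bear on this difference between the tables was not tested.

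Prkcb-208, from the gene of protein kinase C beta, was second, at 169 and 167 TPM, or 40.5% and 40.6% of its gene. Here the tables were close, since the read-based level was 172 and 169 tpm and the share 31.2% and 29.8%. Prkcb-208 has 297 own bases, more than the other members of highest level described here. Itm2b-202, from a gene whose protein is cleaved into short peptides and is mutated in familial dementias, had 149 and 111 TPM, or 43.4% and 36.1% of its gene. Its read-based share was 27.1% and 27.6%. Ctsb-202, from the gene of the lysosomal protease cathepsin B, had 116 and 116 TPM and 57.8% and 59.1% of the gene, and its read-based share was 63.0% and 61.2%. Chchd10-202, from a gene of a mitochondrial protein, had 111 and 99.5 TPM, 59.9% and 56.3% of its gene, and 46.4% and 39.8% read-based. For these 4 transcripts both tables gave the member at least 27.1% of the gene in each library.

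Some of the highest members came from ribosomal protein genes. Rps18-210 was at 110 and 116 TPM (79.1% and 87.0% of the gene), and the read-based tables listed it at 0 in both libraries. Rps16-203 had 129 and 110 TPM, 63.7% and 57.2% of its gene, and a larger read-based share of 82.0% and 81.5%. The protein products belong to the small ribosomal subunit. The stretches of intron that these members hold and coding transcripts lack span 68 bases in Rps16-203 and 98 in Rps18-210.

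Other members of high level show the same contrast. Atp5j-208, from the gene of coupling factor 6 of ATP synthase, had 131 and 120 TPM and 77.8% and 79.0% of its gene, and was listed at 0 read-based. Ppia-203, from the cyclophilin A gene, had 121 and 114 TPM but only 16.4% of its gene in each library, and was at 0.759 and 0.720 read-based tpm. Hspa8-204 had 147 and 130 TPM, with wide deposited intervals of 105 to 181 and 89.9 to 173, and 19.1 and 7.82 read-based tpm. Of the 10 members of high level described here, 3 were listed at 0 in both libraries by the read-based tables and 1 more was below 1 tpm.

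**Figure D2:**
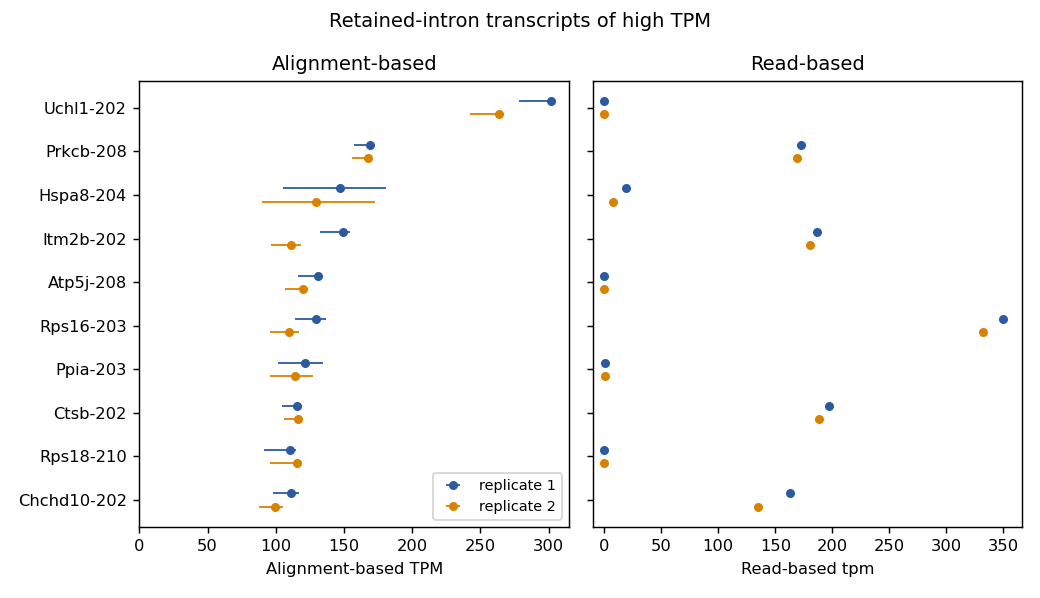
Levels of 10 members of high mean TPM, with the alignment-based TPM on the left and the read-based tpm on the right, blue for replicate 1 and orange for replicate 2. Points are single libraries and the bars on the left are the intervals deposited with the TPM. Most members lie close together in the 2 libraries, an exception being Hspa8-204 at 19.1 and 7.82 read-based tpm, and Uchl1-202, Atp5j-208 and Rps18-210 lie at 0 in the right panel.

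The typical member was a minor product of its gene. The median share of the gene's summed TPM was 7.29% (7.29% in replicate 1 and 7.23% in replicate 2), and the 10th and 90th percentiles were 2.04% and 22.3%. At the same threshold the median was 10.6% for transcripts typed processed_transcript, 13.9% for those typed nonsense_mediated_decay, 36.3% for protein_coding and 32.2% over all other types. A share of at least 50% in both libraries was held by 93 members (1.14%), against 27.8% of all transcripts at 1 TPM in both libraries and 35.3% of those of other types. Since 1 transcript at most can hold over 50% of a gene, and coding transcripts are the usual product, these shares are a description of the annotation types at this threshold.

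**Figure D3:**
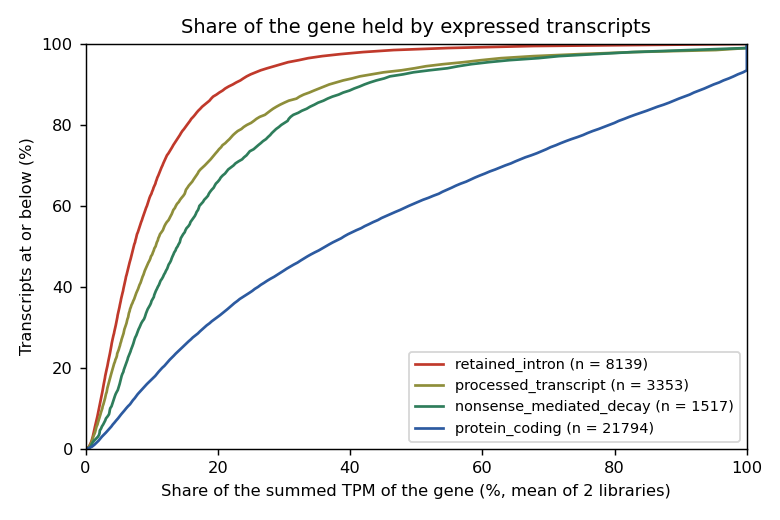
The x axis is the share of the gene's summed TPM held by a transcript, as the mean of the 2 libraries, and the y axis the percent of transcripts at or below it. The retained_intron curve lies to the left of the other 3 types, with a median of 7.29% against 36.3% for protein_coding.

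The gene's leading transcript was a member in 255 cases, and 109 of these also led in the read-based tables. Members of 1 gene add up: their summed share had a median of 14.9% per gene, was at least 50% in both libraries in 237 genes and under 10% in both in 1345. Of the 237 genes, 126 passed 50% in both libraries of the read-based tables too. A single member was found in 2255 genes, 2 or more in 2010, and 6 or more in 110. The most, 10, were found in Tia1, Ptprs and Man2c1. In Tia1, an RNA-binding protein of stress granules, they held 67.2% and 64.4% of the gene (62.7% and 61.9% read-based). In Man2c1, a cytosolic mannosidase, they held 59.4% and 60.0% (56.0% and 54.6% read-based). In Ptprs, a receptor phosphatase of axons and synapses, they held 27.6% and 24.4%. Snrnp70, Mapk8ip3, Tbce and Rbm5 had 9 each. In Tbce, a tubulin-folding cofactor, the members held 84.6% and 82.3% of the gene, and 79.7% and 77.9% read-based.

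The 12 members of highest share, among genes of at least 10 TPM with a coding transcript, included 5 from genes of cytosolic ribosomal proteins or of ATP synthase, families added as lists after the values were seen. Rps26-202 held 93.3% and 91.4% of its gene (95.1 and 91.9 TPM), but 31.4% and 36.6% read-based. Prelid1-202, from the gene of a carrier of phospholipids between mitochondrial membranes, held 91.0% and 92.3% (70.2 and 67.0 TPM), and 78.9% and 77.4% read-based. Mrps26-201, from a gene of the mitochondrial ribosome, held 91.3% and 90.9% at 32.1 and 28.2 TPM, and 91.6% in both libraries read-based. These are the introns of 82 and 80 bases printed above, and the tables placed most of the gene in the member with the intron in every library.

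Mrpl57-202, from another mitochondrial ribosome gene, held 86.0% and 84.9%, and 86.6% and 85.2% read-based. Ptges2-203, from a prostaglandin synthase gene, held 76.4% and 76.2%, and 77.7% and 79.0% read-based. Carmil2-201, from a gene of a regulator of actin capping, held 74.9% and 77.3%, and 78.1% and 83.3% read-based. In these 3 the tables differed by under 7 percentage points in each library.

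The other 6 differed more. Rps23-202 held 86.0% and 81.6%, and Rps18-210 and Atp5j-208 the shares given above, and all 3 were listed at 0 read-based. Rps20-201 held 77.8% and 84.8% against 40.7% and 51.7% read-based. Pdcl3-202, from a gene of a phosducin-like chaperone of protein folding, held 78.1% and 73.5% against 43.9% and 41.2%. Arsa-201, from the gene of the lysosomal enzyme arylsulfatase A, held 75.9% and 73.2% (11.2 and 10.3 TPM) against 57.3% and 48.1%. Of the 93 members with at least 50% in both libraries, 41 also passed 50% in both libraries of the read-based tables.

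At the other end were members of very abundant genes. App-211, from the amyloid precursor protein gene, holds a whole intron and 3466 intronic bases, and had 1.01 and 1.09 TPM, which is 0.156% and 0.180% of the gene. Apoe-211, from the gene of the main lipid carrier of the brain, held 0.225% and 0.202%. Cfl1-203, from the cofilin gene, held 0.199% and 0.245%, and Fth1-208, from the ferritin heavy chain gene, 0.237% and 0.220%. The read-based shares of App-211 were 0.147% and 0.164%, close to the alignment-based ones. A threshold in TPM admits a smaller share the higher the gene.

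Genes were also grouped by function. Of all retained-intron transcripts 37.3% were members, and the median summed share over all genes with a member was 14.9%. The 37.3% takes in genes of any level, and the levels of the listed genes were not matched to it. SR proteins, which bind exons and recruit the spliceosome, and their kinases had 59 members of 79 annotated transcripts (74.7%), in 20 of 24 genes, with a median summed share of 29.1% of the gene (range 3.96% to 69.5%). Of the 59 members, 56 were at 1 read-based tpm in both libraries. The highest gene of this list, Srsf11, had 7 members with 68.9% and 70.2% of its TPM (55.5% and 54.0% read-based), and Clk4, a kinase of SR proteins, had 5 with 56.0% and 54.6% (55.2% and 58.5% read-based). Both were named after their values were seen. A summed share also grows with the number of members in the gene. The median share of a single member was 7.29% over all members and 9.09% in this list. It was 9.73% for nonsense-mediated decay and exon junction genes. For hnRNP proteins and other splicing regulators it was 4.61%, for the core spliceosome 5.84% and for genes with retention described in the literature 6.12%. Every other list was below 7.29% too.

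By level, Srrm2-209, from the gene of a large scaffold of nuclear speckles, led the SR group at 57.3 and 45.6 TPM, or 18.2% and 15.9% of its gene. Srsf5-212 holds a whole intron of 1229 bases and had 43.6 and 42.4 TPM, 27.5% and 27.9% of the gene and 24.3% and 23.7% read-based. That intron lies also in Srsf5-207 and Srsf5-209, and Srsf5-212 has no own base. Srsf2-203 holds a stretch of 1059 bases that is annotated as 1 long intron and as 2 shorter ones inside it, and had 22.4 and 20.8 TPM, 33.8% and 32.4% of its gene, and 34.97% and 28.1% read-based.

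Among hnRNP proteins and other splicing regulators, 117 of 163 annotated transcripts were members (71.8%), in 34 of 58 genes, with a median summed share of 21.7% (2.49% to 65.8%). Hnrnpa2b1-211 had 29.8 and 29.5 TPM and 13.6% and 14.1% of its gene, and 12.2% and 13.5% read-based. Hnrnpk-215 had 31.8 and 26.7 TPM but 9.03 and 0 read-based tpm, and has 33 own bases. Celf5-207, from a gene of a neuronal splicing regulator, was much like it, with 25.2 and 26.0 TPM against 8.26 and 0 read-based tpm, and 50 own bases.

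The core spliceosome had 57 members of 80 (71.3%), with a median summed share of 17.1%. Snrnp70, a protein of the U1 particle that binds the donor site, had 9 members with 57.8% and 63.0% of the gene, and 40.6% and 42.8% read-based. The highest was Snrnp70-216 at 46.1 and 37.7 TPM, which carries 2366 intronic bases and has 35 own bases. Snrnp70-209 had 22.6 and 24.9 TPM, and Snrnp70-206, with no own base, had 21.7 and 24.3. In Snrpb2 the tables differed, with 63.6% and 62.5% of the gene in 2 members against 7.33% and 9.49% read-based. Snrpb2 was named after its values were seen.

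Nonsense-mediated decay and exon junction genes had 13 members of 20, in 6 genes, with a median summed share of 24.5%. Smg9, a regulator of the kinase of this pathway and named after its values were seen, had 4 members with 45.9% and 46.3% of the gene. Rbm8a-204 had 8.70 and 3.72 TPM, and Smg5-203 had 4.92 and 4.46. For Rbm8a-204, from a core gene of the exon junction complex, the share was 38.8% and 22.6% in the 2 libraries, a wider gap than the read-based 51.9% and 49.5%.

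A list of genes whose intron retention is described in the literature had 46 members of 62, with a median summed share of 32.1% (0.213% to 65.8%). It shares Tia1, Clk4, Srsf5 and other genes with the lists above. Ogt-204, from the gene of the enzyme that adds N-acetylglucosamine to proteins, holds a whole intron and had 25.2 and 23.8 TPM, 23.6% and 23.9% of the gene, and 29.3% in both libraries read-based. Clk4-207 had 15.2 and 16.3 TPM and 28.3% and 28.4% of its gene, and has no own base. Nktr, a cyclophilin of nuclear speckles, had 7 members with 46.8% and 46.1%, and Clk1 had 5 with 44.0% and 39.1%. Nktr and Clk1 were named after their values were seen.

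Synaptic genes had members in most cases, but of small share. Of 39 retained-intron transcripts of presynaptic genes 34 were members (87.2%), with a median summed share of 2.71%. Dnm1-211, from the gene of the dynamin of synaptic vesicle uptake, was at 38.6 and 39.7 TPM, only 6.65% and 7.38% of its gene. Slc17a7-203, from the vesicular glutamate transporter gene, holds 5 separate intronic stretches and had 18.3 and 17.5 TPM, 3.25% and 3.26% of the gene. Unc13a, which primes synaptic vesicles, stood higher, with 25.9% and 27.5% in 3 members, led by Unc13a-207 at 18.0 and 20.5 TPM.

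Postsynaptic genes had 35 members of 41 (85.4%), with a median summed share of 9.60%. Gria2, which encodes the AMPA receptor subunit that sets calcium permeability, had 30.96% and 33.8% in 4 members, and 27.0% and 27.8% read-based. Gria2-206 was at 33.3 and 29.98 TPM, and Gria2-208 at 14.2 and 23.3. Shank1-206, from a scaffold gene of the postsynaptic density, was at 22.3 and 32.1 TPM and 7.85% and 10.7% of its gene. In both Gria2-208 and Shank1-206 replicate 2 was the higher, but the deposited intervals of the libraries overlapped. Gria2-208 has no own base.

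Ion channel genes had 34 members of 45 (75.6%), with a median summed share of 7.31%. Kcnt1, a sodium-activated potassium channel, stood apart in this list, with 6 members that held 61.9% and 60.5% of the gene, and 62.4% and 59.3% read-based. Kcnt1-206 holds a whole intron of 1990 bases and had 17.3 and 16.4 TPM, or 26.3% and 26.9%. Cacna1a-206, from the P/Q-type calcium channel gene, was at 12 and 11.4 TPM, under 11% of its gene in both libraries.

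Long noncoding RNAs had 11 members of 40 (27.5%), in 5 genes. In Gas5, a host of small nucleolar RNAs, 6 members held 34.0% and 33.5% of the gene, but 15.8% and 12.5% read-based. Snhg11-202 was at 15.8 and 14.6 TPM and Snhg11-204, with no own base, at 15.6 and 13.7, each under 4% of the gene. The annotation types the Snhg11 gene as protein_coding although it was put in this list. Glial genes had 6 members of 15, in 5 genes, with a median summed share of 0.990%. Glul-205, from the glutamine synthetase gene of astrocytes, was at 7.60 and 8.50 TPM, or 0.933% and 1.05%, and Slc1a3-204, from a glutamate transporter gene, at 5.15 and 3.73. In tissue, fewer cells of a type and less RNA per cell cannot be told apart in such levels.

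Genes of translation and energy supply had 59 members of 85 (69.4%), with a median summed share of 3.36%. Eno2, the neuronal enolase, was the highest of the list with 20.7% and 24.8% in 4 members, led by Eno2-210 at 55.9 and 69.8 TPM. Eno2-203 was at 32.7 and 33.2 TPM, and neither transcript has an own base. All ribosomal protein genes and all genes of the respiratory chain and ATP synthase were added as lists after the values were seen. Their median summed shares were 4.10% over 50 genes and 4.56% over 43, below the 14.9% of all genes, although each list has 6 members with at least 50% of the gene in both libraries. Uqcrh-205, from a gene of complex III, held 55.4% and 51.7% (0 and 1.79% read-based), and Cox7b-203, of complex IV, 63.5% and 57.0% (99.4% and 99.5% read-based). The high members of these lists were thus not typical of them, and both differed between the tables by over 35 percentage points.

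**Figure D4:**
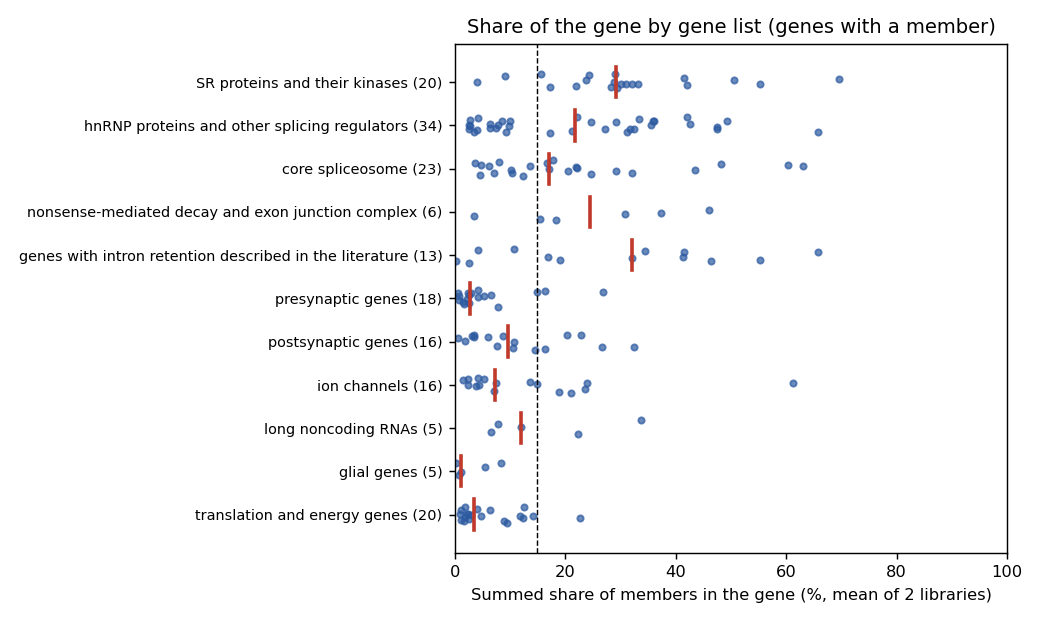
Each point is 1 gene with at least 1 member, placed by the summed share of its members in the gene's TPM (percent, mean of 2 libraries), for 11 gene lists with the number of genes in brackets. Red bars are list medians and the dashed line is the median over all genes with a member (14.9%). SR proteins (29.1%) and genes with described retention (32.1%) lie right of it, and presynaptic (2.71%) and glial genes (0.990%) left of it. Summed shares grow with the number of members in a gene. The median share of a single member was 9.09% for SR proteins and 6.12% for genes with described retention, against 7.29% over all members.

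The read-based tables quantify the same libraries a second time, without the alignments, so agreement between the tables is not an independent measurement. Of the members 6936 (85.2%) had at least 1 tpm in both libraries there, against 84.6% of all transcripts at 1 alignment-based TPM in both. Conversely, 10506 retained-intron transcripts reached 1 read-based tpm in both libraries, and 3570 of these were not members. The read-based values are on a higher scale, by a median of 0.55 and 0.62 (log2) over protein_coding transcripts in replicates 1 and 2, and by 0.62 and 0.68 over members. Shares of the gene do not depend on that scale.

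Among members with a share above 0 in every table and library (7313), the median log2 ratio of read-based over alignment-based share was -0.04. The share was within 2-fold in 6240 members (76.7%), lower read-based by over 2-fold or listed at 0 in 1422, and higher by over 2-fold in 431. Transcripts of other types with a share under 50% were within 2-fold in 64.5% of 17612 cases, and members with a share under 50% in 77.2% of 8012. The correlation of log2(TPM + 1) between the tables across members was r = 0.52 in replicate 1 and 0.51 in replicate 2 (Spearman rho 0.57 and 0.56, 8139 members). Between the libraries it was 0.93 in the alignment-based and 0.90 in the read-based tables. For protein_coding transcripts the correlation between tables was 0.73 in both libraries. Transcripts share library, depth and reads, and members start at 1 TPM by the rule, so these values are descriptions.

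The tables agreed more often on members with much sequence of their own. Of the 3966 members with 300 or more own bases 98.3% were at 1 read-based tpm in both libraries, of the 430 with 1 to 49 own bases 63.5%, and of the 652 with none 66.7%. Length moved in the same direction: 95.6% of 3654 members of 1000 bases or more passed, and 23.3% of 296 members under 400 bases. Members with a whole intron passed in 90.6% of cases and those with part of one in 82.5%. Listed at 0 in both libraries of the read-based tables were 541 members, with a median length of 458 bases and 87 own bases, and 53 of them had at least 10 TPM. Another 285 were at 0 in 1 library only and 377 were above 0 in both but under 1 in at least 1.

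**Figure D5:**
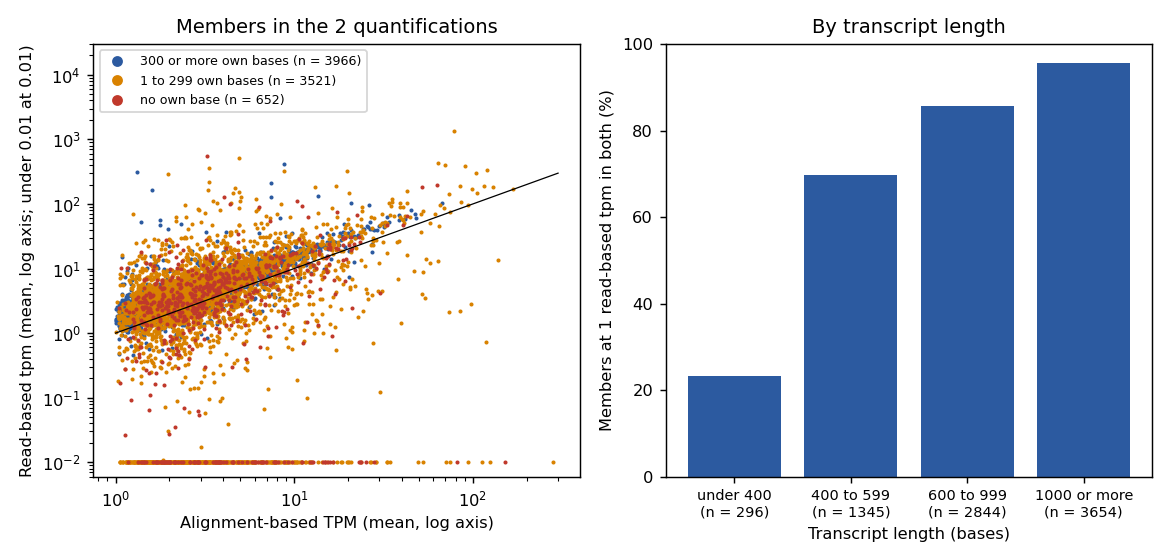
Left, each point is 1 member by mean alignment-based TPM and mean read-based tpm (log axes, the line marks equal values), coloured by its number of own bases. Right, bars give the percent of members at 1 read-based tpm in both libraries by transcript length, from 23.3% under 400 bases to 95.6% at 1000 bases or more.

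Among members with at least 50 expected counts in both libraries, the greatest gaps downward were at Chd3-203, Apod-201, Slc25a3-204, B4galnt4-205 and Ppp1r37-202, all below 0.01 read-based tpm in both libraries, as were 580 members in all. Chd3-203, from the gene of a chromatin remodeller, had 31.8 and 34.6 TPM and 18.3% and 19.4% of its gene. Apod-201, from the gene of a lipid-binding protein made by glia, had 31.5 and 25.9 TPM and 44.2% and 48.3%. The greatest gaps upward were at Ptms-203, with 1.73% and 2.60% of the gene against 37.4% and 31.5% read-based, and Rpl37a-204, with 3.80% and 3.16% against 68.6% and 68.1%. Zwint-203 had 1.94% and 1.70% against 25.9% and 25.1%, Rpl10a-207 had 2.93% and 2.89% against 53.7% and 55.9%, and Ppfia3-205 had 2.79% and 2.98% against 30.7% and 27.2%. In each case both libraries lay on the same side.

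Members were compared between the 2 libraries. Total expected counts were 31196858 and 32292150, and 285 members had under 10 expected counts in a library. Shares of the gene had a median SD of 0.779 percentage points between the libraries, and differed by over 5 points in 825 members. After scaling, 96.1% of the 8011 members whose counts averaged 10 or more were within 2-fold, against 95.8% of transcripts of any type at 1 TPM in both libraries and 85.4% of all transcripts of that count. A member was called different when the 95% interval of its count ratio lay wholly beyond 2-fold, an interval that covers counting error only. Replicate 2 was higher in 12 members and lower in 13, together 0.312% of the 8011. Over all 54490 transcripts of that count, 3.57% were called higher and 3.56% lower, but the rule on level removes transcripts that are low in 1 library. Over the 36603 transcripts at 1 TPM in both libraries, 0.451% were higher and 0.470% lower. With an interval beyond 1.5-fold 126 of the 8011 members were called, against 1137 of the 36603 transcripts (3.11%). On read-based counts at 2-fold 169 members were called, and 1303 of 31844 transcripts (4.09%). The number of members tested on read-based counts is not given, so the 169 cannot be set against the 4.09%. Of the 8011 members, 7 were called and had deposited TPM intervals that did not overlap, against 36 of the 36603 transcripts (0.0984%). Without regard to calls, such intervals were apart in 128 of all 8139 members (1.57%), against 3.46% of transcripts at 1 TPM in both libraries.

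Hsp90aa1-205, from the gene of the inducible cytosolic chaperone, had 378 and 124 expected counts, 3.07-fold lower in replicate 2 (interval 2.504 to 3.80), and 9.98% and 3.45% of the gene. In the read-based tables it was at 4.55 and 4.54 tpm. Ccl27a-214 had 348 and 138 expected counts and no own base, and Ric8a-202, from the gene of a G-protein chaperone, had 221 and 84.2, with 16.6 and 16.0 read-based tpm. Among members called higher in replicate 2, Dus3l-202 had 47.8 and 170 expected counts, Copa-202 had 56.3 and 184, Otof-205 had 146 and 409 and Ppm1b-207 had 114 and 301. Of these 7 members, 5 had no own base. The read-based tables put replicate 2 higher in the 4 called higher, but gave Hsp90aa1-205 and Ric8a-202 nearly equal levels and Ccl27a-214 a higher level in replicate 2.

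The tissue label was checked against defining markers. The gene TPM was 1348 and 1306 for Snap25 (neurons), 730 and 710 for Slc1a2 (astrocytes), 303 and 334 for Mbp (oligodendrocytes) and 30.6 and 30.9 for Csf1r (microglia). Of the markers of tissue outside the cortex, Alb and Prl were at 0, Hbb-bs, of red blood cells, was at 114 and 145, and Ttr, of the choroid plexus, at 6.12 and 34.3. The part of the Ttr difference in the member differences was not tested.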

How the data were processed

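Total RNA of 2 libraries of 1 group was analysed. Expected counts and TPM per transcript, with an interval for the TPM whose level is not stated, were deposited by the authors in alignment-based tables. Assembly mm10 and annotation GENCODE M21 are named in the list of files of each library. Estimated counts and tpm per transcript were deposited in read-based tables. Which aligner and quantifiers were run is not given in the sources used here. Reads of CAST/EiJ alleles were quantified against the C57BL/6J reference.

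Transcript types, exons and sequences came from the annotation, with Python 3.11.15, pandas 2.3.3, numpy 2.4.6 and scipy 1.17.1. A member's share is its TPM over the summed TPM of its gene in the same library. Introns are those of protein_coding transcripts of the gene, of at least 30 bases, a minimum set after seeing values. Rounded expected counts were scaled by TMM, run under R 4.3.3 in edgeR 4.0.16, with DESeq2 1.42.0 size factors as an alternative. The ratio of replicate 2 over replicate 1 has an exact Clopper-Pearson 95% interval, and the call needs a mean count of at least 10. Reads are PCR copies without molecular identifiers, and therefore the intervals cover counting error only. A single group allows no comparison of conditions, and p-values are not used.

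The members and the 11 gene lists were chosen with earlier results of these data known. Named members are the 12 of highest TPM and of highest share, the 4 of lowest share, the extremes of the difference between tables, called members averaging 100 counts or more, 3 on each side of the threshold, and up to 3 of each list. Some members that this rule takes in are not reported here. Alternatives changed the threshold, unit, table, scaling, count minimum and libraries used.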

Additional observations from a re-analysis of the deposited data

How the results depend on the processing

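The number of members fell to 4280 at a threshold of 2 TPM, and stayed within 1.5 times of 8139 under the other alternatives, 9176 to 9725 with 1 library left out. The median share was 6.95% to 7.19% with 1 library left out, 7.37% with at least 10 expected counts in both libraries, 6.22% in the read-based tables and 3.33% in shares of expected counts, which weight long transcripts more. The median log2 share ratio was -0.0466 to -0.03785 with 1 library left out and -0.09485 with a pseudocount of 0.01 over all members. With a pseudocount of 0.1 in place of 1 the correlation between tables was 0.37 and 0.36, and between libraries 0.92. Over members above 0 read-based in both libraries it was 0.71 and 0.70 between tables. Members called different between the libraries numbered 14 at a mean count of at least 50, 126 beyond 1.5-fold, 169 on read-based counts, and 7 with deposited intervals also apart, an alternative chosen after seeing the data. For the 14 no share over all transcripts is given, so that count says nothing particular to members. The introns held had a median of 271 bases and 52.0% GC over introns of any other type of transcript, and of 298 bases and 52.05% with the longest intron of each member. With overlapping introns merged, also chosen after seeing the data, it was 251 bases. Counts of members at or above 50% of the gene, and at 1 read-based tpm, stayed within 1.5 times under every alternative run. No paired analysis was possible because there is 1 group. Counting error alone is about 13.1% of the median member, and the deposited TPM interval of the median member is 75.3% of its TPM wide, so single low members are loosely determined.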
